A study of Mus musculus with 48 samples.

Results

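Gene expression was compared among 3 domains of mouse skin in catagen, the regression phase of the hair cycle. The members were the 7 catagen libraries among the 48 samples of the series, and they were assigned by domain name and hair cycle stage: 3 chin libraries, 2 ventral libraries and 2 dorsal libraries. Each library was made from RNA of whole skin of C57BL/6 mice, with no further allele or treatment named for any of the 3 groups, and the study asked whether skin domains differ in the signals that set the pace of their hair cycles. A further 36 libraries cover the same 3 domains at 5 other stages (competent telogen, early, mid and late anagen, and refractory telogen) and served only to place the catagen values. The labels gave no age, sex or number of mice for the catagen libraries, and nothing stated that libraries of a group came from separate animals, so the p-values below measure the spread between these libraries, which may be technical. Values are FPKM, fragment counts scaled by transcript length and by the library's mapped total, estimated for 46983 genes.

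A hair follicle cycles through growth (anagen), regression (catagen) and rest (telogen). During catagen the lower follicle shrinks by programmed cell death, the matrix cells at its base stop dividing, pigment production ends, and the hair shaft is finished with a club that anchors it while the dermal papilla, the mesenchymal signalling centre of the follicle, moves upward. Because whole skin was used, each value mixes follicles, epidermis, dermis, fat, vessels and any muscle beneath the skin, and a lower level of a gene from fewer cells of a type and from less RNA per cell cannot be told apart.

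The 7 libraries were checked against general skin markers and against each other before any comparison. All carried the basal keratins Krt14 (1147 to 2359 FPKM) and Krt5 (482 to 1003 FPKM), the suprabasal keratin Krt10 (162 to 380.1 FPKM) and the dermal collagen gene Col1a1 (149 to 299 FPKM). The labels of ventral replicate 1 disagreed: its title and source named ventral catagen skin, while its tissue location field named the rostral ear. The position-dependent gene Hoxb7 read 0.27, 0.65 and 0.36 FPKM in chin, 10.4 and 7.19 in ventral and 3.20 and 3.06 in dorsal libraries, and Hoxb6 read 0.66, 0.54 and 1.05 FPKM in chin, 9.34 and 8.43 in ventral and 4.13 and 3.15 in dorsal libraries. Ventral replicate 1 was therefore close to ventral replicate 2 and above every chin and dorsal library at both genes. It was kept in the ventral group, and counts without it are given for all genes and for the muscle, Hox, hair shaft, cornified envelope and adipocyte lists.

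The dorsal libraries stood apart from the rest of the skin libraries in ways that follow base composition. Both dorsal catagen libraries lay outside the range of all 41 other skin libraries at 2884 of 9472 genes with a mean of at least 5 FPKM (30.4%), against 0.454% for chin catagen, 0.813% for ventral catagen and 0.0739 to 8.35% over the 17 other conditions. The gap between genes of high and low GC content in a library's deviation from the mean of conditions was -1.17 and -1.11 log2 units in the dorsal catagen libraries and -0.36 to 0.56 in the other 41. Among genes of under 40% GC, 11.2% were called lower in dorsal than chin skin (limma, adjusted p under 0.05). This share of called genes reached 48.9% among genes of over 60% GC, whereas for ventral against chin skin it was 6.12 and 3.63%. Among those outside the range was Rab1b, a gene of vesicle transport that most cells use. It read 7.37 to 8.13 FPKM in the dorsal catagen libraries and 72.6 to 174 FPKM in the 41 others. Values listed under Lars2 were 340.4 to 444 FPKM against 2753 to 12376 FPKM. Those under the small RNA gene Mir6236 were 0 in both dorsal catagen libraries against 342 to 3205 FPKM. Which transcripts the reads at these 2 entries come from was not tested. Dorsal values are therefore given as deposited and after a correction for GC content and transcript length, and how far the composition of these 2 libraries entered their difference from the other domains was not tested. Estimated depth was 12448651 to 17807368 fragments in the chin, 8693819 and 10974916 in the ventral and 10429228 and 10090681 in the dorsal libraries, and 15652 to 16142 genes per library reached 0.5 FPKM.

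**Figure D1:**
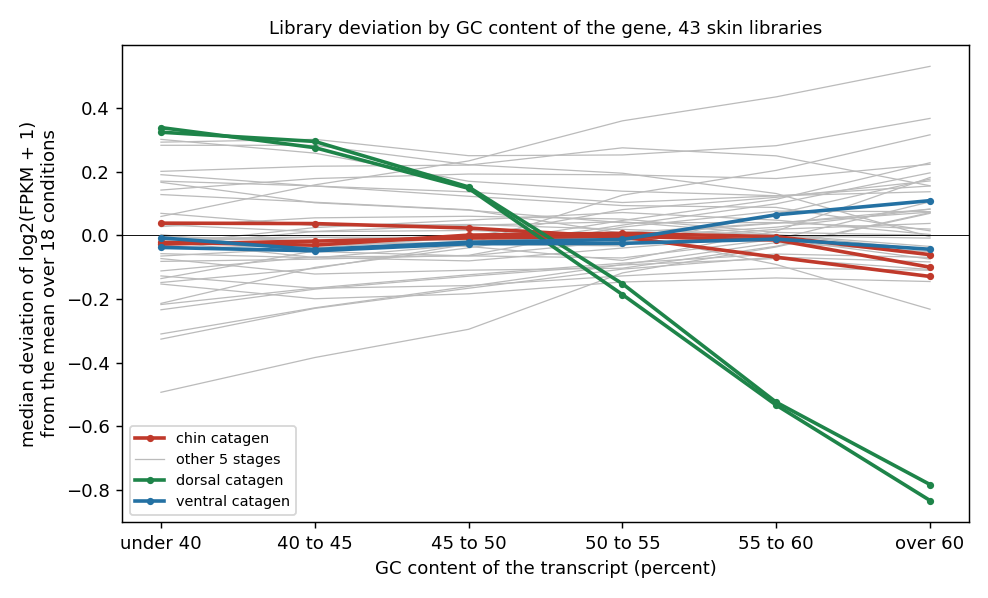
Median deviation of log2(FPKM + 1) from the mean over the 18 conditions (y axis) against GC class of the gene (x axis, percent GC of the longest transcript), 1 line per skin library. The 2 dorsal catagen lines fall from left to right, with a gap of -1.17 and -1.11 log2 units between high-GC and low-GC genes, while the other 41 libraries span -0.36 to 0.56.

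Grouping by domain accounted for most of the variation among the catagen libraries. It explained 70.2% of the squared distance between the 7 libraries over 17347 genes tested (exact permutation test over 210 arrangements of the labels, one-sided p = 0.00952, the smallest they can give). On the scale of that distance, chin libraries lay 111 to 121 apart, the ventral pair 139 and the dorsal pair 122. Chin and ventral libraries were 154 to 161 apart, so the nearest cross-domain pair exceeded every within-domain pair, and the dorsal libraries were 223 to 229 from chin and 213 to 228 from ventral libraries. An F-test in limma on log2(FPKM + 1) called 8996 genes different among the domains (51.9% of those tested) at a Benjamini-Hochberg adjusted p under 0.05. On this scale a difference understates the change of genes with low values.

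Chin and ventral skin were the most alike pair by number of called genes, and the dorsal comparisons held most of the calls. Ventral skin had 497 genes higher (2.87%) and 784 genes lower (4.52%) than chin skin. Dorsal skin had 4522 genes higher (26.1%) and 4336 lower (25%) than chin skin, and 4190 higher (24.2%) and 3635 lower (21%) than ventral skin. The 3 comparisons share libraries and are not independent of each other. A gene was said to set a domain apart when it was called against both other domains in the same direction: 480 genes were higher and 344 lower in chin skin, 155 higher and 331 lower in ventral skin, and 3415 higher and 3139 lower in dorsal skin. After the GC and length correction, dorsal skin had 3974 genes higher and 4490 lower than chin skin, of 17267. Against ventral skin it had 3398 higher and 3601 lower, and 2843 higher and 3061 lower genes set it apart. The numbers of dorsal calls thus remained large after correction, and how many of the same genes were called in both was not counted. Domain and other traits of the 2 dorsal libraries cannot be told apart.

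The count for ventral against chin skin rested on all the libraries. The total of 1281 became 699, 442 and 470 on leaving out chin replicate 1, 2 or 3, 517 and 640 on leaving out ventral replicate 1 or 2, and 762 and 791 on leaving out dorsal replicate 1 or 2, which enter through the shared estimate of spread. Rescaling each library to TPM, in which all genes of a library add up to the same total, moved the median difference of all genes from -0.01 to -0.12 and the split from 497 higher and 784 lower to 255 higher and 1568 lower, so small ventral increases depend on the scaling. Of the 95 genes whose ventral against chin difference is described here as called, 45 were called in every fit that left out 1 library. The text says where a named gene was not, or gives the range of calls of its list.

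Of all the gene lists, skeletal muscle had the median difference farthest from 0 between chin and ventral skin. Fast-twitch fibres contract through a myosin heavy chain (Myh4), light chains (Myl1), thin filament actin (Acta1) and a calcium switch of troponin subunits (Tnnc2, Tnnt3, Tnni2), and muscle creatine kinase (Ckm) restores their ATP. The start-site windows of 4 of these genes are shown because their transcripts moved together. They cover 250 bases before to 50 after the start (RefSeq, GRCm38.p6), and capitals mark each CAGCTG, an E-box of the kind bound by muscle regulatory factors.
Ckm: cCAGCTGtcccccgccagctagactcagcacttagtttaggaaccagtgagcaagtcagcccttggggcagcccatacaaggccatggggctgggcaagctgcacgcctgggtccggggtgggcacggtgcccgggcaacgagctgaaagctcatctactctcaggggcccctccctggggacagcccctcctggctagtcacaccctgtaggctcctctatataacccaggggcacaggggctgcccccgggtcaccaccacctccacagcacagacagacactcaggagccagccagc
Myh4: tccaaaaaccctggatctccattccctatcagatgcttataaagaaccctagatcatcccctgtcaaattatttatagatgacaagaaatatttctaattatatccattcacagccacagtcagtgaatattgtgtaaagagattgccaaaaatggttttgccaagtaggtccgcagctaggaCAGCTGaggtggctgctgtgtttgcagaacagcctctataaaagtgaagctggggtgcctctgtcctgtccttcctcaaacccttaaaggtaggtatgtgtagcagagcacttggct
Acta1: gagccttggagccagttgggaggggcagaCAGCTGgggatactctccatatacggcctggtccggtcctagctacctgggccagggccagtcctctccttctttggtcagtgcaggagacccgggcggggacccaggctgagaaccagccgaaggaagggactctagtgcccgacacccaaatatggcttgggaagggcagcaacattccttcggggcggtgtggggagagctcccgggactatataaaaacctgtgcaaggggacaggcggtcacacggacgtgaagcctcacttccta
Tnnc2: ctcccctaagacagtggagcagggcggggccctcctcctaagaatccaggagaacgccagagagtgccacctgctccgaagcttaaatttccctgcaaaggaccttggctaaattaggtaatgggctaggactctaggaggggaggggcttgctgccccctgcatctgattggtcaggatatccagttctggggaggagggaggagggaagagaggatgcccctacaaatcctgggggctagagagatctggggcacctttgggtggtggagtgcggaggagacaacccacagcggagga
These windows lie at chr7:19410844-19411143, plus strand for Ckm, chr11:67237562-67237861, plus strand for Myh4, chr8:123894726-123895025, minus strand for Acta1 and chr2:164779685-164779984, minus strand for Tnnc2. CAGCTG, which reads the same on both strands, occurred once in each of the Ckm, Myh4 and Acta1 windows and not in that of Tnnc2. Over the muscle list it was found in 15 of 25 genes with a window (60% of them, with 33 genes listed), against 18.3% of all 27025 genes with a window. The match is a description of these letters and not evidence of binding.

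Of 33 skeletal muscle genes tested, 29 were lower and 2 were higher in ventral than in chin skin, with a median log2 difference of -3.23 against -0.01 over all genes. Ckm read 442, 402 and 427 FPKM in chin, 32.5 and 25.5 in ventral and 103 and 98.2 in dorsal libraries. The ventral libraries were lowest and the domains did not overlap, with ventral over chin at -3.83 (SE 0.11, adjusted p = 1.96e-05). Myl1, an essential light chain of fast fibres, read 628, 630.5 and 619 FPKM in chin, 37.04 and 36.7 in ventral and 507 and 495 in dorsal libraries. Chin and dorsal libraries were high and ventral libraries low, at -4.05 (SE 0.051, adjusted p = 1.36e-06) for ventral over chin. Acta1 read 854, 843 and 872 FPKM in chin, 81.1 and 70.6 in ventral and 675 and 659 in dorsal libraries, again with the ventral libraries lowest, at -3.48 (SE 0.073, adjusted p = 5.99e-06). Myh4 read 45.3, 49.6 and 46.3 FPKM in chin, 2.09 and 2.34 in ventral and 72.2 and 70.1 in dorsal libraries, which gave -3.90 (SE 0.071, adjusted p = 3.81e-06). Pvalb, the calcium-buffering parvalbumin of fast fibres, read 129, 181 and 148 FPKM in chin, 5.04 and 6.68 in ventral and 84.03 and 82.2 in dorsal libraries, and had the largest difference of the list at -4.48 (SE 0.16, adjusted p = 5.34e-05). Tnnc2 read 941, 998 and 898 FPKM in chin, 70.5 and 65.99 in ventral and 1613 and 1596 in dorsal libraries, at -3.77 (SE 0.069, adjusted p = 3.81e-06). Each of these genes was called in all 7 fits that left out 1 library, and in those fits 28 to 29 list members were lower.

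The exceptions belonged to slow fibres. Tnnt1, slow troponin T, read 0.95, 0.84 and 0.94 FPKM in chin, 2.10 and 1.74 in ventral and 14.4 and 15.7 in dorsal libraries, which gave 0.61 (SE 0.10, adjusted p = 0.0214) for ventral over chin. Tnni1, slow troponin I, read 16.2, 18.5 and 17.7 FPKM in chin, 24.2 and 25.4 in ventral and 30.2 and 27.8 in dorsal libraries, at 0.49 (SE 0.079, adjusted p = 0.0207). The ventral libraries were above the chin libraries at both genes, but Tnnt1 lost its call in 4 and Tnni1 in 3 of the 7 fits without 1 library, with highest adjusted p of 0.0897 and 0.0829. Without ventral replicate 1 neither was called, and 29 genes of the list were called lower.

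The summed muscle level of dorsal skin lay within the range of chin skin, but single genes differed in both directions. The summed level of the list was 5253 to 5613 FPKM in chin, 529 to 564 in ventral and 5279 to 5454 in dorsal libraries. Against ventral skin, 31 of the 33 genes were higher in dorsal skin and 0 lower (median 3.32, all genes 0.04). Against chin skin 15 were higher and 12 lower (median 0.28, all genes 0.02), and after the GC and length correction 17 were higher and 8 lower. The higher members included fast-fibre genes, with Tnnc2 at 0.76 (SE 0.069, adjusted p = 0.000222) and Myh4 at 0.59 (SE 0.071, adjusted p = 0.000719). Myl2, the slow and cardiac regulatory light chain, read 1.26, 0.8 and 1.77 FPKM in chin, 0.24 and 1.13 in ventral and 17.6 and 14.00 in dorsal libraries, a dorsal over chin difference of 2.90 (SE 0.28, adjusted p = 0.000281). Myh7, the slow myosin heavy chain, read 0.05, 0.08 and 0.09 FPKM in chin, 0.08 and 0.17 in ventral and 5.05 and 4.05 in dorsal libraries, at 2.36 (SE 0.13, adjusted p = 3.54e-05). Sln, sarcolipin, an inhibitor of the calcium pump, read 2.99, 2.55 and 1.89 FPKM in chin, 1.71 and 0.78 in ventral and 23.96 and 25.96 in dorsal libraries, at 2.91 (SE 0.21, adjusted p = 9.43e-05). Only the dorsal libraries were high at these 3 genes, and the corrected differences were 2.68, 2.61 and 2.64. Myh2, the heavy chain of fast oxidative fibres, read 2.95, 3.02 and 3.13 FPKM in chin, 1.04 and 1.19 in ventral and 19.5 and 17.9 in dorsal libraries, which put dorsal skin above chin by 2.29 (SE 0.086, adjusted p = 1.6e-05) and ventral below chin, at -0.93 (SE 0.086, adjusted p = 0.0028). Ckm went the other way, with dorsal below chin at -2.06 (SE 0.11, adjusted p = 2.96e-05) and -1.71 after correction, and Myoz1, a Z-disc protein of fast fibres, read 52.6, 57.4 and 57.3 FPKM in chin, 2.46 and 4.35 in ventral and 18.6 and 15.2 in dorsal libraries, at -1.67 (SE 0.19, adjusted p = 0.000529). Acta1 was lower, at -0.36 (SE 0.073, adjusted p = 0.00683) as deposited and 0.06 after correction (adjusted p = 0.435), so its direction depended on the correction, and without dorsal replicate 2 it was not called (adjusted p = 0.0502). Muscle genes also varied over the other stages, with summed levels of 558 to 31496 FPKM in chin, 509 to 2170 in ventral and 886 to 11158 in dorsal libraries.

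**Figure D2:**
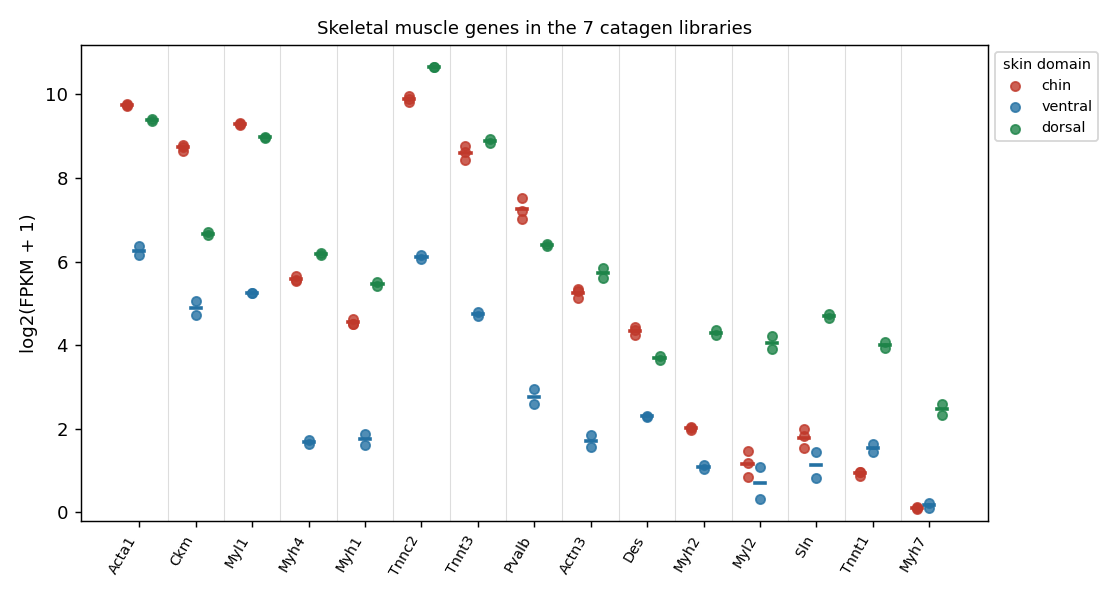
Levels of 15 skeletal muscle genes in the 7 catagen libraries (y axis, log2(FPKM + 1); 1 point per library, bars at the mean, colour by domain). The 2 ventral points sit at the bottom for the fast-fibre genes (Ckm 25.5 and 32.5 FPKM against 98.2 to 442 FPKM elsewhere), while for Myl2, Myh7, Sln and Tnnt1 the 2 dorsal points sit above the other 5.

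Hox genes, which encode transcription factors that record position along the body axis, had the highest median of all the gene lists for ventral over chin skin. Of 39 Hox genes, 22 reached the level for testing, of which 8 were higher and 0 lower in ventral than in chin skin (median 0.34). All but Hoxa7 and Hoxc8 of these 8 lie in the Hoxb cluster on chromosome 11, where 6 of 7 tested genes were higher with a median of 0.93. Hoxb7 was higher in both ventral libraries, at 2.77 (SE 0.18, adjusted p = 0.000582), and Hoxb6 at 2.51 (SE 0.16, adjusted p = 0.000577), and both calls stood in every fit without 1 library. Hoxb5os, a transcript antisense to Hoxb5 whose reads cannot be told apart from those of its partner where strand was not used, read 0.17, 0.27 and 0.19 FPKM in chin, 8.85 and 4.86 in ventral and 4.22 and 4.32 in dorsal libraries, at 2.65 (SE 0.21, adjusted p = 0.00152). The remaining 6 of the 8 were less secure. Hoxb4 read 0.41, 0.42 and 0.4 FPKM in chin and 1.72 and 1.67 in ventral libraries, at 0.93 (SE 0.13, adjusted p = 0.0134), with a highest adjusted p of 0.0665 on leaving out a library, and for Hoxb5, Hoxb2, Hoxb8, Hoxa7 and Hoxc8 that value was 0.102, 0.0705, 0.122, 0.0652 and 0.0782. Without ventral replicate 1, whose label was in doubt, 2 of 21 Hox genes were called higher and the median was 0.36.

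Dorsal skin carried other Hox genes above the chin level. Dorsal over chin, 12 of the 22 were higher and 0 lower (median 0.48), and 13 were higher after correction. Hoxd8 read 1.42, 1.70 and 1.43 FPKM in chin, 1.30 and 1.40 in ventral and 5.82 and 5.51 in dorsal libraries, with the dorsal libraries alone high, at 1.41 (SE 0.10, adjusted p = 8.76e-05). Hoxa7 read 1.62, 1.34 and 1.18 FPKM in chin, 4.58 and 3.10 in ventral and 3.67 and 3.42 in dorsal libraries, where ventral and dorsal libraries were both above chin, at 1.01 (SE 0.16, adjusted p = 0.0181) and 0.94 (SE 0.16, adjusted p = 0.00309). Hoxc13, which is expressed in the hair matrix and directly regulates hair keratin genes, read 67.7, 79.9 and 72.3 FPKM in chin, 80.4 and 80.3 in ventral and 208 and 178 in dorsal libraries, at 1.38 (SE 0.096, adjusted p = 8.15e-05). Between dorsal and ventral skin 4 were higher (Hoxd8, Hoxc13, Hoxd4, Hoxa5) and 5 lower (Hoxb7, Hoxb6, Hoxc6, Hoxb8, Hoxb2), and after correction 6 were higher and 2 lower. Hoxb7 was lower in dorsal than ventral skin, at -1.22 (SE 0.20, adjusted p = 0.00304), and -1.30 after correction. Of these 9 calls, those of Hoxb8, Hoxa5, Hoxd4 and Hoxc6 were lost in at least 1 fit without a library. Dorsal over chin, Hoxb5 and Hoxd4 also lost their call in at least 1 such fit, with highest adjusted p of 0.122 and 0.0593.

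**Figure D3:**
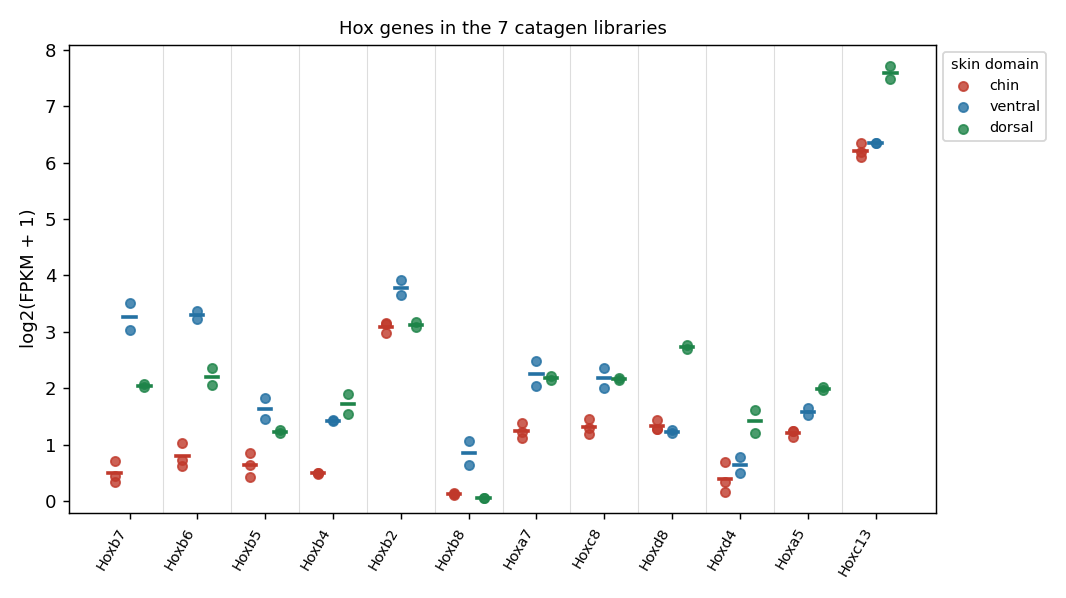
Levels of 12 Hox genes in the 7 catagen libraries (y axis, log2(FPKM + 1); 1 point per library, bars at the mean, colour by domain). Hoxb7 and Hoxb6 order the domains as ventral, dorsal and chin from high to low without overlap (Hoxb7 at 7.19 and 10.4, 3.06 and 3.20, and 0.27 to 0.65 FPKM), while Hoxd8 and Hoxc13 are high in the dorsal libraries only.

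Genes of the hair shaft were abundant in every catagen library and differed by gene family. Keratin-associated proteins (KAPs) are small proteins that crosslink hair keratins and are encoded in clusters, chiefly the glycine-tyrosine-rich families on chromosome 16 and sulfur-rich families on chromosome 11. Windows around the starts of 4 KAP genes are shown because the clusters behaved differently. Capitals mark each TATAAA, searched on both strands, in windows of the same length and source.
Krtap16-3: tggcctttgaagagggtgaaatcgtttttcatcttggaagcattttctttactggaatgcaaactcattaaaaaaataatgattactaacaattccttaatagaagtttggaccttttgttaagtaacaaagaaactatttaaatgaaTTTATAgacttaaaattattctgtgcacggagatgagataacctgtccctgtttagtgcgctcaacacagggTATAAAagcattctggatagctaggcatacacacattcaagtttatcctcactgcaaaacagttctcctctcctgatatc
Krtap19-1: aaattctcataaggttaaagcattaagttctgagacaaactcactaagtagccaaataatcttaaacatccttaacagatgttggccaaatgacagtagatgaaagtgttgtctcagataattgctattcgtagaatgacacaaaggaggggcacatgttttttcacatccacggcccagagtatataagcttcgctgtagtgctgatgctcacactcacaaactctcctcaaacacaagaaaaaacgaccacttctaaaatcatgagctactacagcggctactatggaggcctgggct
Krtap20-2: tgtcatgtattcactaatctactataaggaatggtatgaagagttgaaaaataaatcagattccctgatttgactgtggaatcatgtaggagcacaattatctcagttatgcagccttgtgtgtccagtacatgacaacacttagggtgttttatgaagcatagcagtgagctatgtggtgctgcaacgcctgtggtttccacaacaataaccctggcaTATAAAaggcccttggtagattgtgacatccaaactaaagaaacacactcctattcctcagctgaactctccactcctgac
Krtap4-9: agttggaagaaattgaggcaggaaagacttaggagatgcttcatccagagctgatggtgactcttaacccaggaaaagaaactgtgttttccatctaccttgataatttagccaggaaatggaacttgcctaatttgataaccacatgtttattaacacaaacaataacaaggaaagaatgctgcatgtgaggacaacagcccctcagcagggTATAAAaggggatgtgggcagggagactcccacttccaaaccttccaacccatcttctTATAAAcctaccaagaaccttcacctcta
The windows lie at chr16:88962824-88963123, minus strand for Krtap16-3, chr16:88869361-88869660, minus strand for Krtap19-1, chr16:89205611-89205910, plus strand for Krtap20-2 and chr11:99784950-99785249, plus strand for Krtap4-9. TATAAA occurred 2 times in the windows of Krtap16-3 and Krtap4-9, once in that of Krtap20-2 and not in that of Krtap19-1. It was found in 42 of 51 KAP genes with a window (82.4%, with 57 listed), against 15.7% of all genes with a window. Among the 4 genes shown it was thus present both where dorsal levels were higher than chin levels (Krtap16-3) and where they were lower (Krtap4-9 and Krtap20-2).

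Of 56 KAP genes tested, 17 were higher and 5 lower in ventral than in chin skin (median 0.09), and 12 were higher and 11 lower after rescaling to TPM, which turned the median to -0.04. Without ventral replicate 1 there were 16 higher and 8 lower, and the median was -0.02. The calls divided by chromosome. Among 24 KAP genes at chr16:88610705-89571183 (GENCODE, GRCm38), 15 were higher and 1 lower with a median of 0.59, while among 23 at chr11:99550130-99993994 there were 2 higher and 4 lower with a median of -0.17. This division by chromosome was noticed in these values and was not tested. Neighbouring KAP genes have similar sequences and could exchange reads, so the level of a single member is uncertain.

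Within the chromosome 16 cluster, Krtap19-1 read 246, 232 and 236 FPKM in chin, 1113 and 1295 in ventral and 3180.3 and 3082 in dorsal libraries. The domains were ordered chin, ventral, dorsal without overlap, at 2.33 (SE 0.082, adjusted p = 4.96e-05) for ventral over chin and 3.71 (SE 0.082, adjusted p = 1.16e-05) for dorsal over chin. Krtap19-4 read 129.7, 153 and 169 FPKM in chin, 522 and 562 in ventral and 843 and 806 in dorsal libraries, in the same order, at 1.85 (SE 0.11, adjusted p = 0.000501) and 2.45 (SE 0.11, adjusted p = 2.13e-05). Krtap16-3 read 1859, 1827 and 1834 FPKM in chin, 4242 and 5168 in ventral and 7952 and 7653 in dorsal libraries, which gave 1.35 (SE 0.10, adjusted p = 0.00112) and 2.08 (SE 0.10, adjusted p = 2.37e-05). All of these calls stood on leaving out any library, and the dorsal over chin differences were 3.22, 2.62 and 1.58 after correction. Krtap20-2, in the same cluster, went the other way: it read 38.97, 37.98 and 34.5 FPKM in chin, 10.2 and 9.57 in ventral and 8.27 and 11.3 in dorsal libraries, with the chin libraries alone high, at -1.81 (SE 0.13, adjusted p = 0.000898) and -1.84 (SE 0.13, adjusted p = 8.1e-05).

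The chromosome 11 cluster was lower in dorsal skin. There 18 of 23 KAP genes were lower and 0 higher than in chin skin (median -1.78), and 19 were lower after correction, while on chromosome 16 there were 15 higher and 5 lower (11 and 9 after correction). Krtap4-9 read 997, 904 and 1005 FPKM in chin, 820.1 and 528 in ventral and 99.5 and 79.6 in dorsal libraries, at -3.43 (SE 0.19, adjusted p = 3.86e-05) and -3.15 after correction. Krtap4-13 read 889, 792 and 911 FPKM in chin, 614 and 434 in ventral and 91.6 and 75.3 in dorsal libraries, at -3.36 (SE 0.16, adjusted p = 2.43e-05), and Krtap2-4 read 1215, 1137 and 1242 FPKM in chin, 1319 and 1182 in ventral and 203 and 189 in dorsal libraries, at -2.60 (SE 0.08, adjusted p = 1.32e-05). The dorsal libraries were lowest at all 3 genes and did not overlap with the others. Krtap31-1 read 153, 159 and 175 FPKM in chin, 71.2 and 63.7 in ventral and 55.5 and 54.3 in dorsal libraries, where the chin libraries alone were high, at -1.25 (SE 0.08, adjusted p = 0.000577) for ventral over chin. Over all KAP genes, 16 were higher and 28 lower in dorsal than chin skin, and 14 higher and 35 lower than in ventral skin. After correction these counts were 14 and 34, and 9 and 36.

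The hair shaft keratins, which form the filaments of the cortex and cuticle, summed to 9495 to 10170.5 FPKM in chin, 11592 to 13813 in ventral and 8238 to 8544 in dorsal libraries. Of 14 tested, 4 were higher and 0 lower in ventral than chin skin, 4 were higher and 4 lower after rescaling to TPM, and 1 was higher and 1 lower without ventral replicate 1. Krt34 read 456, 499.9 and 498 FPKM in chin, 784 and 779 in ventral and 1086 and 1070.0 in dorsal libraries, rising from chin to ventral to dorsal skin without overlap, at 0.69 (SE 0.066, adjusted p = 0.00324) for ventral over chin, and it was called in every fit without 1 library. Krt84 read 34.5, 39.5 and 38.4 FPKM in chin, 66.98 and 56.1 in ventral and 15.9 and 17.4 in dorsal libraries, at 0.70 (SE 0.10, adjusted p = 0.0146), and lost its call without chin replicate 3 or ventral replicate 1 (highest adjusted p = 0.0584). Krt33b and Krt81 also lost theirs in some of those fits. Dorsal over chin, 2 were higher and 10 lower (median -0.61), and the correction took this to 4 higher, 8 lower and a median of -0.20. Krt83 read 739, 712 and 730.0 FPKM in chin, 1018 and 772 in ventral and 79.7 and 94.4 in dorsal libraries, at -3.05 (SE 0.13, adjusted p = 1.82e-05) and -2.49 after correction. Krt35, an early shaft keratin, read 1145, 1184 and 1183 FPKM in chin, 1086 and 859.6 in ventral and 366 and 381 in dorsal libraries, at -1.64 (SE 0.10, adjusted p = 5.75e-05) and -1.22. Both were lowest in the dorsal libraries.

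**Figure D4:**
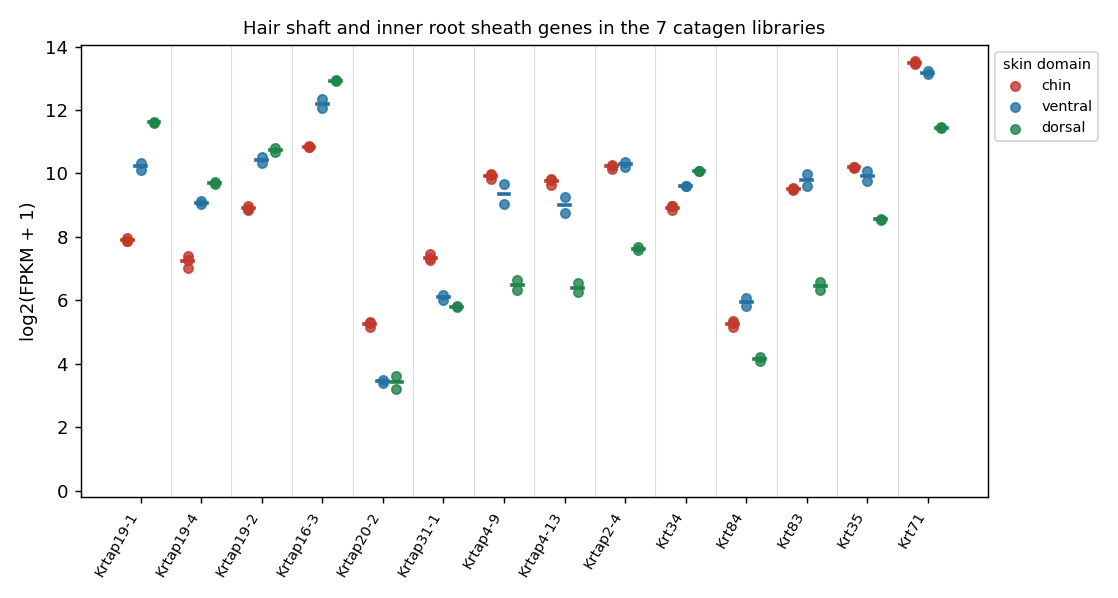
Levels of 14 KAP, hair keratin and inner root sheath genes in the 7 catagen libraries (y axis, log2(FPKM + 1); 1 point per library, bars at the mean, colour by domain). Krtap19-1 rises from chin (232 to 246 FPKM) through ventral to dorsal skin, whereas Krtap4-9, Krtap2-4 and Krt83 are lowest in the dorsal libraries.

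As deposited, most genes tested of the inner root sheath, which moulds the growing shaft, and of the companion layer around it were lower in dorsal skin. Of 12 inner root sheath genes, 1 was higher and 2 lower in ventral than chin skin, and 3 were higher and 8 lower in dorsal than chin skin (6 lower after correction). Over all genes 26.1% were higher and 25% lower in dorsal than chin skin. The median GC content of the list was 54.6%, and among all genes of 50 to 55% GC 30.7% were called lower. Krt71 read 11949, 11163 and 11405 FPKM in chin, 9594 and 8981 in ventral and 2764 and 2819 in dorsal libraries, at -2.04 (SE 0.084, adjusted p = 1.75e-05) and -1.55 after correction, while Krt25 read 2016, 2454 and 2372 FPKM in chin, 2493 and 2337 in ventral and 3794 and 3649 in dorsal libraries, with the dorsal libraries highest, at 0.71 (SE 0.10, adjusted p = 0.00166). The 4 companion and stress keratins tested all fell in dorsal skin relative to both other domains (3 after correction against chin). Krt17 read 4298, 4142 and 4295 FPKM in chin, 4393 and 3469.7 in ventral and 1252 and 1228 in dorsal libraries, at -1.77 (SE 0.11, adjusted p = 5.23e-05) and -1.23. Krt6a read 282, 318 and 333 FPKM in chin, 205 and 192 in ventral and 65.04 and 67.7 in dorsal libraries, at -2.21 (SE 0.084, adjusted p = 1.6e-05), and it was also lower in ventral than chin skin, at -0.64 (SE 0.084, adjusted p = 0.0105), a call lost without ventral replicate 2.

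Regulators of the hair matrix and shaft were tested next. Of 15, 4 were higher and 9 lower in dorsal than chin skin, 8 lower after correction. Hr, hairless, a corepressor needed for follicle regression, read 22.6, 22.8 and 23.4 FPKM in chin, 21.98 and 21.7 in ventral and 4.94 and 4.41 in dorsal libraries, at -2.08 (SE 0.068, adjusted p = 1.33e-05) and -1.56 after correction. Foxn1, which drives shaft differentiation, read 33.7, 33.7 and 33.7 FPKM in chin, 40.6 and 37.6 in ventral and 11.8 and 10.7 in dorsal libraries, at -1.50 (SE 0.068, adjusted p = 2.06e-05) and -1.002. Msx1, a homeobox gene of the matrix, read 42.98, 37.3 and 37.5 FPKM in chin, 43.4 and 42.2 in ventral and 14.6 and 13.8 in dorsal libraries, at -1.40 (SE 0.08, adjusted p = 4.05e-05) and -0.82. All 3 were lowest in the dorsal libraries without overlap. Trps1 read 4.97, 5.46 and 5.35 FPKM in chin, 8.00 and 8.61 in ventral and 14.5 and 14.9 in dorsal libraries, rising from chin to ventral to dorsal skin, at 0.57 (SE 0.076, adjusted p = 0.0107) and 1.33 (SE 0.076, adjusted p = 4.05e-05), and its ventral call was lost without ventral replicate 2 (adjusted p = 0.0518). Lef1 was also higher in ventral than chin skin, and its call was lost on leaving out any library.

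Pigment cell genes rose from chin to dorsal skin. Melanocytes of the hair bulb make melanin with the enzymes Tyr, Tyrp1 and Dct on a scaffold that includes Pmel and Mlana, and they stop as catagen begins. Of 16 genes tested, 3 were higher and 0 lower in ventral than chin skin (median 0.28), 14 were higher and 1 lower in dorsal than chin skin (median 0.81), and 12 were higher and 1 lower in dorsal than ventral skin. Mlana read 96.3, 111 and 104 FPKM in chin, 183 and 198 in ventral and 473 and 459 in dorsal libraries. The 3 domains did not overlap, at 0.87 (SE 0.078, adjusted p = 0.00244) for ventral over chin and 2.16 (SE 0.078, adjusted p = 1.5e-05) for dorsal over chin. Dct read 88.95, 83.6 and 86.6 FPKM in chin, 123 and 138 in ventral and 342 and 354 in dorsal libraries, in the same order, at 0.59 (SE 0.069, adjusted p = 0.0068) and 1.997 (SE 0.069, adjusted p = 1.45e-05). Ednrb, the endothelin receptor of the lineage, read 17.8, 19.4 and 18.97 FPKM in chin, 17.6 and 17.3 in ventral and 54.5 and 55.8 in dorsal libraries, with the dorsal libraries alone high, at 1.51 (SE 0.062, adjusted p = 1.75e-05). The ventral calls of Mlana and Dct stood in every fit without 1 library. After correction the dorsal differences were 1.74 for Mlana, 1.72 for Dct and 1.22 for Ednrb, and 14 list members were higher and 0 lower. Pmel was the exception, at 89.4, 91.2 and 99.1 FPKM in chin, 116 and 118 in ventral and 71.3 and 70.05 in dorsal libraries, lower in dorsal than chin skin, at -0.39 (SE 0.063, adjusted p = 0.00251) and -0.063 after correction (adjusted p = 0.409). The summed level of the list was 423 to 438 FPKM in chin, 592 to 629 in ventral and 1189 to 1191 in dorsal libraries. At late anagen it was 247 to 263, 534 to 550 and 729 to 750 FPKM, so the summed level was not lower at catagen in any domain. For chin skin this rests on late anagen libraries that stood close to dorsal competent telogen libraries, as given below. For dorsal skin it rests on the 2 catagen libraries that deviated by GC content.

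Proliferation genes were also higher in dorsal skin. Of 30 cell cycle and mitosis genes, 1 (Mki67) was higher and 0 lower in ventral than chin skin, and that call was lost on leaving out any library. In dorsal skin 18 were higher and 2 lower than in chin skin (median 0.44), 16 and 3 after correction, and 18 were higher and 2 lower than in ventral skin, 12 and 4 after correction. Top2a, the DNA topoisomerase of dividing cells, read 29.3, 31.5 and 28.9 FPKM in chin, 36.04 and 39.1 in ventral and 111 and 120.3 in dorsal libraries, at 1.92 (SE 0.073, adjusted p = 1.6e-05) and 1.55 after correction. Mcm3, a subunit of the replicative helicase, read 17.4, 17.9 and 16.6 FPKM in chin, 19.9 and 22.9 in ventral and 62.01 and 59.8 in dorsal libraries, at 1.76 (SE 0.078, adjusted p = 1.97e-05) and 1.95. The dorsal libraries were highest at both genes. Plk1, a mitotic kinase, was lower in the dorsal libraries at 14.2, 13.2 and 12.3 FPKM in chin, 14.2 and 12.3 in ventral and 6.94 and 5.42 in dorsal libraries, with -0.99 (SE 0.12, adjusted p = 0.000755) and -0.51. The summed level of the list was 621 to 632 FPKM in chin, 659.9 to 671 in ventral and 927 to 965 in dorsal libraries. At refractory telogen, the resting stage after catagen, it was 153 to 194 FPKM over the 3 domains. At late anagen it was 418 to 445 FPKM in chin, 532 to 548 in ventral and 676 to 706 in dorsal libraries, below the catagen level of each domain. Mid anagen libraries read 445 to 613, 609 to 695 and 661 to 700 FPKM, and early anagen libraries 721 to 967, 155 to 174 and 1176 to 1179 FPKM. A fall of the summed level from late anagen to catagen was thus not seen. The limits given for the chin and dorsal libraries with the pigment genes hold here too.

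Dermal papilla and stem cell markers were compared next. Among 14 dermal papilla genes tested, Rspo3 alone was called, at 2.09, 3.01 and 2.56 FPKM in chin, 4.17 and 4.69 in ventral and 14.9 and 13.7 in dorsal libraries, higher in ventral than chin skin by 0.62 (SE 0.13, adjusted p = 0.0392), and this call was lost on leaving out any library. Dorsal over chin, 10 were higher and 2 lower with a median of 0.71 (8 and 2 after correction), but the median fell to -0.02 over members with at least 5 FPKM. Rspo3, a secreted amplifier of WNT signalling, was higher in dorsal than chin skin by 2.11 (SE 0.13, adjusted p = 4.94e-05), and 1.93 after correction. Of 15 stem cell markers, Krt15 and Col17a1 were lower in ventral skin. Krt15, a bulge keratin, read 917, 873 and 829.9 FPKM in chin, 594 and 547 in ventral and 488 and 482 in dorsal libraries, with the chin libraries highest, at -0.61 (SE 0.072, adjusted p = 0.0068) for ventral over chin and -0.85 (SE 0.072, adjusted p = 0.000166) for dorsal over chin, and it was called in every fit without 1 library, whereas Col17a1 lost its ventral call on leaving out any library. In dorsal skin 5 of these markers were higher and 5 lower than in chin skin, against 26.1% higher and 25% lower over all genes.

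Interfollicular epidermis and its cornified layer separated the domains in another order. Among 28 cornified envelope genes, which encode the precursors crosslinked into the barrier, 6 were higher and 1 lower in ventral than chin skin (median 0.10, and -0.03 after rescaling to TPM). Without ventral replicate 1 there were 4 higher and 1 lower, and the median was -0.05. Lce3d read 11.1, 10.5 and 15.99 FPKM in chin, 49.4 and 54.8 in ventral and 19.97 and 18.7 in dorsal libraries. Ventral libraries were highest, at 1.99 (SE 0.17, adjusted p = 0.00208). Lce3c read 87.5, 80.9 and 86.4 FPKM in chin, 208 and 173 in ventral and 65.3 and 64.7 in dorsal libraries, at 1.15 (SE 0.09, adjusted p = 0.00138). Both stood in every fit without 1 library, while Lce3a at 1.75 (SE 0.25, adjusted p = 0.0141) lost its call without ventral replicate 2 and Sprr1b at 1.07 (SE 0.15, adjusted p = 0.0131) in 2 of the 7 fits. Late envelope genes of this kind have similar neighbours, so single members are uncertain. In dorsal skin 4 were higher and 17 lower than in chin skin (3 and 17 after correction), and 0 were higher and 18 lower than in ventral skin, before and after correction. Sprr4 read 141, 272 and 220.0 FPKM in chin, 125 and 151 in ventral and 27.7 and 19.8 in dorsal libraries, at -3.07 (SE 0.29, adjusted p = 0.000243) and -3.24 after correction, with the dorsal libraries lowest.

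Among 18 interfollicular epidermis genes, 1 was higher and 3 lower in ventral than chin skin, and 8 were higher and 8 lower in dorsal than chin skin. After correction, which could be made for 15 of them, 8 were higher and 4 lower. The basal keratins Krt14 and Krt5 were lower and the suprabasal keratins Krt10 and Krt1 higher in dorsal than chin skin. Krt80, of the same list, was lower. Krt14 read 2131, 2338 and 2359 FPKM in chin, 1814 and 1619 in ventral and 1194 and 1147 in dorsal libraries, at -0.96 (SE 0.085, adjusted p = 0.000205) and -0.45 after correction. Krt5 read 887, 979 and 1003 FPKM in chin, 893 and 794 in ventral and 491 and 482 in dorsal libraries, at -0.97 (SE 0.084, adjusted p = 0.000184) and -0.45. Krt10 read 179, 185 and 172 FPKM in chin, 186 and 162 in ventral and 359 and 380.1 in dorsal libraries, at 1.05 (SE 0.078, adjusted p = 0.000103) and 1.37, and Krt1, its partner, read 28.6, 32.05 and 30.03 FPKM in chin, 20.7 and 23.02 in ventral and 56.5 and 56.9 in dorsal libraries, at 0.89 (SE 0.076, adjusted p = 0.000172) and 0.99. The dorsal libraries were lowest at Krt14 and highest at Krt10 and Krt1. Ventral libraries were below chin libraries at Krt14 (-0.41 (SE 0.085, adjusted p = 0.0409)) and Krt1 (-0.45 (SE 0.076, adjusted p = 0.0232)), and these calls were lost in 6 and 5 of the 7 fits without 1 library. Krt80 read 77.5, 80.4 and 73.7 FPKM in chin, 61.4 and 51.9 in ventral and 0.24 and 0.86 in dorsal libraries, and the 2 dorsal values were below the 22.6 to 134 FPKM of the other 41 skin libraries.

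The hair cycle is governed by BMP signalling, which holds follicles at rest, by WNT, hedgehog and FGF signals that drive growth, and by TGF-beta family members and FGF5 that promote regression. Between chin and ventral skin, where 2.87% of all genes were higher and 4.52% lower, none of 10 BMP response genes was called (median 0.20, and 0.07 without ventral replicate 1), nor any of 14 FGF or 12 EGF family genes, of which 3, 3 and 6 had an unadjusted p under 0.05 in limma. Of the BMP list, the ligand Bmp3 and the antagonists Fst, Sostdc1 and Twsg1 were lower in ventral skin. Bmp3 read 2.06, 1.85 and 2.00 FPKM in chin and 0.97 and 1.03 in ventral libraries, at -0.57 (SE 0.11, adjusted p = 0.0336). Sostdc1, which also blocks WNT receptors, read 71.3, 67.5 and 64.8 FPKM in chin and 53.96 and 49.96 in ventral libraries, at -0.38 (SE 0.069, adjusted p = 0.029). Among 13 WNT target genes, Axin2, Lef1, Tcf7 and Ccnd1 were higher in ventral skin and 0 were lower, with Axin2, the feedback inhibitor, at 2.86, 2.69 and 3.96 FPKM in chin and 5.20 and 6.76 in ventral libraries and 0.75 (SE 0.17, adjusted p = 0.0497). Wnt11 was lower, at 36.2, 30.4 and 30.3 FPKM in chin and 20.7 and 23.5 in ventral libraries and -0.53 (SE 0.10, adjusted p = 0.0337). All of these calls except that of Twsg1 were lost on leaving out any 1 library (highest adjusted p of 0.167 for Axin2 and 0.117 for Bmp3), Twsg1 lost its call in 4 of the 7 fits, and after rescaling to TPM 0 WNT targets were higher and 1 was lower.

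Il1a and Thbs1 kept their call between chin and ventral skin in every fit without 1 library. Il1a, a cytokine counted here with catagen-promoting signals, read 7.59, 7.24 and 6.47 FPKM in chin, 2.99 and 3.11 in ventral and 3.41 and 2.59 in dorsal libraries, with chin libraries alone high, at -0.998 (SE 0.12, adjusted p = 0.00714) for ventral over chin and -1.02 (SE 0.12, adjusted p = 0.000603) for dorsal over chin. Thbs1, an activator of latent TGF-beta, read 12.3, 15.8 and 13.8 FPKM in chin, 7.07 and 6.63 in ventral and 7.29 and 6.76 in dorsal libraries, with the chin libraries again above the others, at -0.92 (SE 0.11, adjusted p = 0.00712) and -0.89 (SE 0.11, adjusted p = 0.000776). Among the other secreted regulators, the WNT antagonist Sfrp2 was higher and Dkkl1 lower in ventral skin (0.56 (adjusted p = 0.0375) and -0.72 (adjusted p = 0.0295)), both lost in 6 of the 7 fits. Of 18 TGF-beta and activin genes 1 was higher and 1 lower, and of 11 IGF genes 1 was higher and 2 lower. Of 13 hedgehog pathway genes 1 was higher and 0 lower in ventral than chin skin. The count was also 1 higher and 0 lower in each fit without 1 library and after rescaling to TPM. Gli1, a transcription factor and target of hedgehog signalling, read 2.29, 1.91 and 2.50 FPKM in chin and 3.04 and 3.40 in ventral libraries and was not called.

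Counts for dorsal over chin skin stand against 26.1% of all genes higher and 25% lower, and lists with shares near these do not stand apart. Corrected counts stand against 3974 higher and 4490 lower of 17267 genes. Of the 10 BMP response genes 6 were lower and 0 higher as deposited (median -0.47), and 4 were lower and 2 higher after correction. Id1, a direct BMP target, read 115, 135 and 132 FPKM in chin, 164 and 129.6 in ventral and 78.2 and 79.1 in dorsal libraries, at -0.68 (SE 0.12, adjusted p = 0.00322) and -0.53 after correction. Bambi, a BMP pseudoreceptor, read 56.6, 56.1 and 56.8 FPKM in chin, 51.4 and 52.2 in ventral and 27.8 and 26.9 in dorsal libraries, at -1.02 (SE 0.052, adjusted p = 2.84e-05) and -1.37. Both were lowest in dorsal skin. Of the BMP ligands 2 were higher and 4 lower as deposited but 4 higher and 2 lower after correction, with Bmp4 at 33.4, 30.8 and 31.4 FPKM in chin, 24.8 and 26.7 in ventral and 20.3 and 21.1 in dorsal libraries and Bmp2 at 8.88, 11.2 and 10.7 FPKM in chin, 9.65 and 9.80 in ventral and 13.9 and 13.2 in dorsal libraries, and of 15 antagonists 3 were higher and 5 lower (4 and 4 after correction). Fstl1, a follistatin-like protein, read 56.4, 56.2 and 51.8 FPKM in chin, 53.4 and 66.3 in ventral and 146 and 148 in dorsal libraries, highest in the dorsal libraries, at 1.41 (SE 0.099, adjusted p = 8.37e-05) and 1.30.

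Among 13 WNT ligands 2 were higher and 5 lower in dorsal than chin skin (3 and 4 after correction). Wnt11 read 6.40 and 6.68 FPKM in the dorsal libraries, lower than chin, at -2.14 (SE 0.10, adjusted p = 2.36e-05) and -1.67 after correction, and Wnt10a, a ligand of the hair placode and matrix, read 23.2, 21.4 and 25.5 FPKM in chin, 22.9 and 19.02 in ventral and 6.88 and 6.50 in dorsal libraries, at -1.66 (SE 0.11, adjusted p = 6.49e-05) and -0.88. Wnt4 read 9.65, 10.3 and 11.4 FPKM in chin, 15.2 and 12.5 in ventral and 24.9 and 23.96 in dorsal libraries, rising from chin to dorsal skin, at 1.16 (SE 0.11, adjusted p = 0.00023) and 1.53. Of 18 WNT antagonists 5 were higher and 8 lower (5 and 4 after correction), and of 13 WNT targets 6 were higher and 3 lower (6 and 1 after correction). In the hedgehog list of 13 genes 5 were higher and 3 lower, 7 and 1 after correction: Ptch1, the main receptor and a target, read 4.30, 4.37 and 4.25 FPKM in chin, 5.00 and 5.65 in ventral and 12.5 and 13.8 in dorsal libraries, at 1.41 (SE 0.084, adjusted p = 4.77e-05) and 1.06, and the effector Gli3 read 3.67, 3.92 and 3.83 FPKM in chin, 4.80 and 5.15 in ventral and 12.97 and 14.5 in dorsal libraries, at 1.61 (SE 0.084, adjusted p = 3.03e-05) and 1.30. The dorsal libraries were highest at both.

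Genes linked to regression were also compared between dorsal and chin skin. Fgf5, the growth factor whose loss prolongs anagen, read 9.84, 10.2 and 9.15 FPKM in chin, 8.54 and 8.10 in ventral and 4.43 and 4.51 in dorsal libraries, with dorsal libraries lowest, at -0.97 (SE 0.078, adjusted p = 0.000133) and -1.06 after correction. Over 16 catagen-promoting genes, 3 were higher and 5 lower as deposited and 0 were higher and 7 lower after correction. Inhba, the activin subunit, read 12.3, 13.5 and 12.5 FPKM in chin, 7.54 and 10.6 in ventral and 4.91 and 4.26 in dorsal libraries, at -1.30 (SE 0.14, adjusted p = 0.000452) and -1.80. Of 14 FGF genes 6 were higher and 5 lower (6 and 3 after correction), with Fgf7, a dermal papilla ligand, at 1.47, 1.32 and 1.24 FPKM in chin, 1.89 and 1.55 in ventral and 4.01 and 3.48 in dorsal libraries and 1.02 (SE 0.11, adjusted p = 0.000523). Of 25 apoptosis genes 6 were higher and 8 lower (6 and 7 after correction), near the shares over all genes. Bcl2l1, which encodes an inhibitor of cell death, read 82.8, 81.5 and 83.8 FPKM in chin, 79.5 and 60.5 in ventral and 11.3 and 12.2 in dorsal libraries, at -2.72 (SE 0.11, adjusted p = 1.78e-05) and -2.23. Of 18 TGF-beta and activin genes 7 were higher and 5 lower (6 and 5 after correction), of 12 EGF genes 2 and 3 (1 and 5), and of 11 IGF genes 5 and 3 (6 and 3).

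Dermis, fat, nerve and other cell types differed as follows. Col1a1 read 170.4, 153 and 149 FPKM in chin, 297 and 299 in ventral and 244 and 261 in dorsal libraries, with chin libraries lowest, at 0.92 (SE 0.076, adjusted p = 0.00175) for ventral over chin. Col1a2, the partner chain of type I collagen, read 118, 116 and 113 FPKM in chin, 183 and 179.6 in ventral and 267 and 281 in dorsal libraries, at 0.65 (SE 0.055, adjusted p = 0.00194). Both calls stood in every fit without 1 library, and the other 18 dermal matrix genes tested were not called between these domains. In dorsal skin 13 of 20 were higher and 2 lower than in chin skin (median 0.60), 14 and 0 after correction, with Dcn, the proteoglycan decorin, at 282, 303 and 283 FPKM in chin, 271 and 285 in ventral and 513 and 498 in dorsal libraries and 0.80 (SE 0.062, adjusted p = 0.000117). Of 11 smooth muscle genes 3 were higher in ventral skin (Acta2, Actg2, Mylk) and 2 lower (Des and Synpo2, which striated muscle also expresses). In the fits without 1 library, 0 to 2 members of this list were higher and 2 lower, so the higher calls were not secure.

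Of 24 adipocyte genes 7 were lower and 0 higher in ventral than chin skin (3 to 7 lower in the fits without 1 library, 3 without ventral replicate 1). Slc2a4, the insulin-regulated glucose transporter that muscle also expresses, read 4.56, 4.13 and 5.01 FPKM in chin, 1.47 and 1.79 in ventral and 2.17 and 2.34 in dorsal libraries, at -1.08 (SE 0.11, adjusted p = 0.00426). Gpd1, a gene of glycerol phosphate synthesis, read 18.7, 18.2 and 18.6 FPKM in chin, 10.8 and 9.01 in ventral and 4.11 and 4.82 in dorsal libraries, at -0.84 (SE 0.098, adjusted p = 0.0068). Adipoq, the fat cell hormone adiponectin, read 98.2, 98.2 and 105 FPKM in chin and 91.7 and 99.9 in ventral libraries and was not called (-0.068 (adjusted p = 0.562)). Of 6 brown fat genes 3 were lower in ventral skin, among them the respiratory subunits Cox8b at 110.0, 117 and 120.4 FPKM in chin, 23.8 and 25.5 in ventral and 153 and 133 in dorsal libraries and Cox7a1 at 63.6, 61.3 and 68.99 FPKM in chin, 24.2 and 21.2 in ventral and 152 and 144 in dorsal libraries, which striated muscle also expresses. The defining brown fat gene Ucp1 did not exceed 0.06 FPKM in any of the 7 libraries. In the nerve list the myelin genes Mbp and Pmp22 were lower in ventral skin, with Pmp22 at 63.9, 63.2 and 65.97 FPKM in chin, 37.3 and 41.4 in ventral and 75.9 and 76.8 in dorsal libraries and -0.70 (SE 0.064, adjusted p = 0.00278). Pmp22 was called in every fit without 1 library, and Mbp was not without ventral replicate 2. Skeletal muscle genes were lower in the same ventral libraries (29 of 33), and their part in these calls was not tested.

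Immune and vascular lists held these ventral against chin calls: 0 of 23 macrophage genes, 0 of 8 T cell genes, 0 of 6 neutrophil and 0 of 13 interferon response genes. At an unadjusted p under 0.05 in limma these lists held 7, 0, 0 and 0 genes, and the whole comparison held 4355. Of 9 mast cell genes Cma1 and Cpa3 were lower in ventral skin, calls lost in 5 and 3 of the 7 fits without 1 library, and of 15 vessel genes Pdpn, of lymphatics and other cells, was higher (0.60 (adjusted p = 0.029), lost in 6 fits). 3 of 6 red blood cell genes were lower. Dorsal over chin, 3 macrophage genes were higher and 7 lower (2 and 8 after correction), with Cd74, the invariant chain of antigen presentation, at 190.4, 149 and 159 FPKM in chin, 122 and 144 in ventral and 19.5 and 17.7 in dorsal libraries and -3.08 (SE 0.13, adjusted p = 1.73e-05) (-2.70 after correction). In the vessel list 5 were higher and 3 lower, with Plvap, of fenestrated endothelium, at 24.7, 23.6 and 22.99 FPKM in chin, 20.9 and 17.8 in ventral and 1.31 and 2.02 in dorsal libraries and -3.23 (SE 0.13, adjusted p = 1.73e-05) (-2.54). The dorsal libraries were lowest at both genes. The dorsal over chin counts of the macrophage and vessel lists stand against 26.1% of all genes higher and 25% lower.

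Genes common to all cells were also compared. Of 76 ribosomal protein genes 3 were higher and 1 lower in ventral than chin skin, and 19 were higher and 30 lower in dorsal than chin skin (17 and 31 after correction), and of 21 respiratory chain genes 0 were higher and 2 lower in the first and 11 higher and 4 lower in the second. Immediate early genes respond to handling and stress of tissue as well as to signals. Of 20, 0 were higher and 4 lower in ventral than chin skin, and 3 were higher and 13 lower in dorsal than chin skin (5 and 10 after correction). Nr4a1 read 7.08, 7.41 and 6.97 FPKM in chin, 3.83 and 3.11 in ventral and 3.43 and 3.28 in dorsal libraries, highest in the chin libraries, at -0.87 (SE 0.097, adjusted p = 0.00588) and -0.90 (SE 0.097, adjusted p = 0.000435), and Junb read 232, 212 and 222 FPKM in chin, 312 and 237 in ventral and 27.8 and 24.6 in dorsal libraries, lowest in the dorsal libraries, at -3.04 (SE 0.12, adjusted p = 1.73e-05) and -2.31 after correction. Among 16 clock genes 4 were higher and 5 lower in dorsal than chin skin (4 and 3 after correction), with Per3 at 3.54, 3.51 and 4.01 FPKM in chin, 4.67 and 4.75 in ventral and 17.8 and 17.2 in dorsal libraries and 1.98 (SE 0.082, adjusted p = 1.75e-05). Among 26 positional transcription factors outside the Hox clusters, 9 were higher and 9 lower (10 and 8 after correction). Tbx1 read 24.2, 25.4 and 26.4 FPKM in chin, 33.4 and 25.9 in ventral and 1.98 and 3.11 in dorsal libraries, at -2.91 (SE 0.16, adjusted p = 3.83e-05) and -2.15 after correction, and Shox2 read 2.00, 2.26 and 2.25 FPKM in chin, 2.93 and 1.70 in ventral and 8.85 and 7.78 in dorsal libraries, at 1.55 (SE 0.17, adjusted p = 0.000453) and 1.61. Dorsal libraries were lowest at Tbx1 and highest at Shox2.

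**Figure D5:**
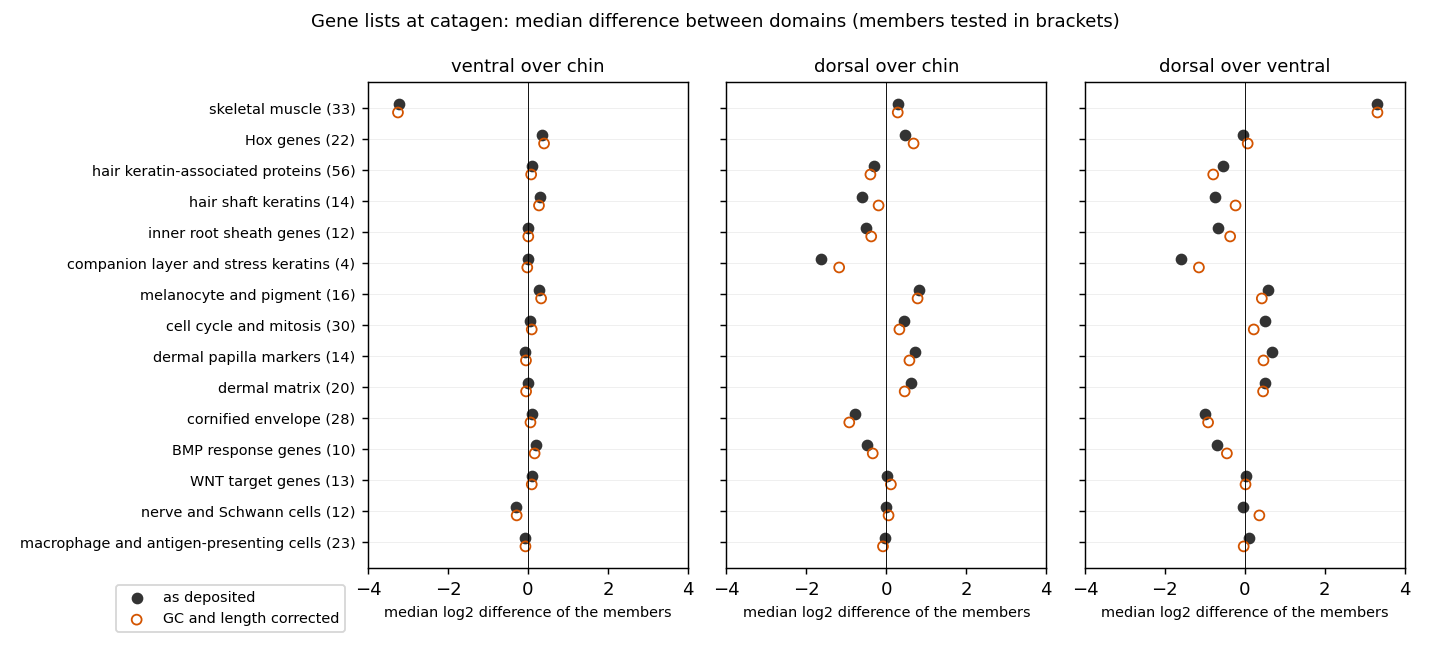
Median log2 difference of 15 gene lists (y axis) for ventral over chin, dorsal over chin and dorsal over ventral skin (x axis in log2 units), as deposited and after the GC and length correction. For ventral over chin the muscle list has the median farthest from 0 among those plotted (-3.23), the melanocyte list lies at 0.81 for dorsal over chin, and the cornified envelope list lies at -0.78.

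Genes outside these lists were named by the size of their difference from both other domains. Chin skin was set apart by Amtn, amelotin, at 33.8, 36.2 and 38.3 FPKM in chin, 10.2 and 12.5 in ventral and 0.34 and 0.23 in dorsal libraries, where ventral over chin was -1.59 (SE 0.11, adjusted p = 0.000762) and the dorsal libraries were lower still, at -4.85 (SE 0.11, adjusted p = 1.16e-05). Rhox4a2, of a duplicated homeobox family on the X chromosome, read 12.3, 10.1 and 9.49 FPKM in chin, 1.80 and 1.11 in ventral and 1.60 and 1.14 in dorsal libraries, with the chin libraries alone high, at -2.25 (SE 0.17, adjusted p = 0.00133). Tmem52 read 7.02, 5.74 and 4.38 FPKM in chin, 0.47 and 0.37 in ventral and 1.06 and 1.79 in dorsal libraries, at -2.22 (SE 0.21, adjusted p = 0.0028). Mybph, a myosin binding protein, read 4.56, 6.30 and 5.30 FPKM in chin, 0.28 and 0.08 in ventral and 0.87 and 0.44 in dorsal libraries, at -2.43 (SE 0.18, adjusted p = 0.00106). Stfa2, a stefin inhibitor of cysteine proteases, was lowest in chin skin, at 2.30, 3.78 and 2.58 FPKM in chin, 15.3 and 10.9 in ventral and 17.9 and 17.7 in dorsal libraries and 1.86 (SE 0.20, adjusted p = 0.00468), and BC100530, a stefin-like gene, read 2.60, 4.22 and 2.26 FPKM in chin, 9.92 and 11.3 in ventral and 17.7 and 20.03 in dorsal libraries, also lowest in chin, at 1.56 (SE 0.20, adjusted p = 0.0104), a call lost without ventral replicate 2. These are gene families with close copies, and their single members are uncertain.

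Several of the largest differences lay at near-identical copies. Eif4a-ps4 read 37.7, 13.8 and 7.02 FPKM in chin, 0 and 0 in ventral and 0 and 0 in dorsal libraries and was thus listed at 0 in 4 libraries. Rps15a-ps7 read 2.22, 2.16 and 3.18 FPKM in chin, 17.8 and 10.1 in ventral and 5.26 and 2.40 in dorsal libraries, and its ventral call was lost in 4 of the 7 fits. Pisd-ps1, with ventral libraries high, read 42.5, 39.6 and 45.9 FPKM in chin, 111 and 92.8 in ventral and 27.7 and 33.2 in dorsal libraries, at 1.23 (SE 0.12, adjusted p = 0.00309). Rps27a-ps2 was listed at 476, 818 and 737 FPKM in chin, 547 and 641 FPKM in ventral and 0 in both dorsal libraries, and summed with Rps27a the levels were 1618 to 2357, 1882 and 2108, and 1253 and 1248 FPKM. Rps12 was listed at 139, 203 and 230.0 FPKM in chin, 63.4 and 118 in ventral and 0 in both dorsal libraries, and its sum with Rps12-ps3 was 243 to 336, 319 and 339, and 189 and 177 FPKM. The sums differed far less than the single copies. Styx, a pseudophosphatase gene, was listed at 0 in both dorsal libraries and at 8.74 to 29.4 FPKM in the other 41 skin libraries. In the other direction Chsy1, a chondroitin synthase, read 26.6 and 27.2 FPKM in the dorsal libraries and 1.86 to 8.78 FPKM in the 41 others, and Etohd2 read 0.98, 1.22 and 1.11 FPKM in chin, 1.42 and 1.64 in ventral and 17.4 and 17.3 in dorsal libraries.

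Among the other stages, the chin late anagen libraries stood close to the dorsal competent telogen libraries. They summed to 132585 and 138476 FPKM over the KAP list against 135276 and 136856 FPKM, to 9127 and 9407 FPKM over the muscle list against 9479 and 9527 FPKM, and to 1249 and 1260.2 FPKM over the macrophage list against 1248 and 1259 FPKM. Their Hoxb6 level was 6.16 and 7.13 FPKM, while other chin stages reached at most 1.42 FPKM and dorsal competent telogen read 5.57 and 5.85 FPKM. Ventral libraries of late anagen read 9.41 to 11.7 FPKM for Hoxb6 and were thus still above the chin libraries of that stage.

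Whether a domain difference at catagen departed from the same difference at the other 5 stages was tested in a fit of all 43 skin libraries. For ventral over chin, 3226 of 21257 genes departed (15.2%), for dorsal over chin 8588 (40.4%) and for dorsal over ventral 7004 (32.9%). Without late anagen and competent telogen among the other stages, 3163 genes departed for ventral over chin, 7782 for dorsal over chin and 6080 for dorsal over ventral. With all stages the ventral over chin count was 1996 and 1895 without ventral replicate 1 or 2. In the fit of all 43 libraries chin and ventral skin differed at 5.19% of genes at catagen and at 15.6 to 32.9% at each other stage, so catagen held the fewest calls for this pair. Dorsal and chin skin differed at 41.3% at catagen. After the GC and length correction, 3529 of 21129 genes departed for ventral over chin, 9139 for dorsal over chin and 7474 for dorsal over ventral. Dorsal counts here rest on the 2 catagen libraries that deviated by GC content from the other 41, and the part of that deviation was not tested.

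KAP and muscle genes were among those with the largest catagen departure for ventral over chin. Krtap19-1 departed by 2.79 (SE 0.25, adjusted p = 1.26e-08) and Krtap20-2 by -4.38 (SE 0.24, adjusted p = 7.4e-13), that is, the ventral over chin difference of the former was more positive and that of the latter more negative at catagen than over the other 5 stages. Without late anagen and competent telogen, 2 of the other stages, these departures were 2.69 and -6.31. The muscle gene Myl1 departed by -2.66 (SE 0.36, adjusted p = 9.9e-06). Of 33 muscle genes 25 had a more negative ventral over chin difference at catagen than elsewhere and 2 a less negative or more positive one. Of 16 melanocyte genes 8 had a higher difference at catagen and 0 a lower one, and of 30 cell cycle genes 9 and 0. Without the same 2 stages, 24 muscle genes were more negative and 1 more positive at catagen, and 10 melanocyte and 16 cell cycle genes were higher and 0 lower. Early anagen stayed among the other stages in both fits. There the cell cycle list summed to 155 to 174 FPKM in ventral and 721 to 967 in chin libraries, and the melanocyte list to 54.7 to 57.05 and 246 to 429 FPKM. Whether the melanocyte and cell cycle departures remain without early anagen was not tested.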

How the data were processed

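RNA from microdissected whole skin was reverse transcribed with a SMART-seq2 type protocol, tagmented with Nextera chemistry and sequenced in pairs. The authors aligned and quantified the reads with RSEM 1.2.25 on mm10, scaled them to FPKM and corrected them for batch effects by a method not given in the sources used here, and they deposited the FPKM values with 2 decimals. How that correction acted on the dorsal catagen libraries is unknown. Depth is not in the table and was estimated from the steps that whole fragments leave in the low values of single-transcript genes, so it is approximate. The table of ear skin was not used here.

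From the FPKM, log2(FPKM + 1) was fitted with limma 3.58.1 in R 4.3.3 (eBayes with a trend) to the 7 catagen libraries, over genes that reached 0.5 FPKM in 2 or more of them, and p-values were adjusted by Benjamini-Hochberg with a threshold of 0.05. The fit had 4 residual degrees of freedom. The difference from other stages was a contrast over all 43 skin libraries, the catagen difference minus the mean of the other 5 stages. The GC and length correction, chosen after seeing the data, took off each library's lowess smooth (span 0.2) on the GC content and then the length of the longest GENCODE transcript (GRCm38), which matched 17267 of the 17347 genes. The steps were tested on simulated data. Replicate numbers do not pair the libraries. For each domain and direction, the genes named outside lists were the 8 with the largest smaller difference from both other domains and a level of at least 5 FPKM. From the signalling lists any called member could be named, and from other lists the up to 4 members that differed most and the first 3 listed. Further members of the lists and Adipoq, Ucp1 and the genes named for the dorsal libraries were chosen after their values were seen. The libraries compared and the gene lists were chosen with earlier results of these data known. Some members of the lists are counted but not reported singly here. Alternatives were other pseudocounts, filters, scalings and fits, and leaving out each library.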

Additional observations from a re-analysis of the deposited data

Results flagged for a closer look

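The difference between domains at catagen departed from the mean difference at the other 5 stages for 3226 genes for ventral over chin, 8588 for dorsal over chin and 7004 for dorsal over ventral (limma, adjusted p under 0.05, of 21257 tested). The genes below had the largest departures on the log2(FPKM + 1) scale. Each kept its sign and its call when competent telogen and late anagen were left out of the other stages.

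For ventral over chin, the keratin-associated protein genes Krtap19-1 and Krtap19-4 departed by 2.79 and 2.41, Stfa2, a stefin, by 2.42, and Gnmt, a glycine methyltransferase gene, by 2.34. On the lower side were Krtap20-2 at -4.38, the copy Eif4a-ps4 at -4.37, and the muscle genes Pgam2, a phosphoglycerate mutase, at -2.68 and Myl1 at -2.66.

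For dorsal over chin, the departures were 6.95 for Rpl17-ps5, 4.08 for RP23-396C19.6, 3.79 for Krtap19-1 and 3.58 for Apoc4, an apolipoprotein gene. The lower side held Rps27a-ps2 at -9.12, Rps12 at -7.34, Krt80 at -5.70 and Amtn at -4.89. For dorsal over ventral they were 7.96 for Rpl17-ps5, 3.79 for AC153941.1, 3.78 for Mup19, a major urinary protein, and 3.75 for RP23-396C19.6, against -9.47 for Rps27a-ps2, -6.79 for Rps12, -5.09 for Lypla2, a thioesterase, and -5.07 for Krt80. Rps27a-ps2 and Rps12 were listed at 0 in both dorsal catagen libraries, so the size of their departure depends on the pseudocount. All departures of dorsal skin rest on the dorsal catagen libraries that deviated by GC content, and the part of that deviation was not tested.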

How the results depend on the processing

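Under every alternative run, the F-test, dorsal over chin and dorsal over ventral counts stayed within 1.5 times the reported count, and they were 6562 to 8915, 6687 to 9107 and 5685 to 7623 on leaving out each library in turn. Ventral over chin (1281) was 442 to 791 in those fits, and the genes that set chin (824) or ventral skin (486) apart were 278 to 469 and 219 to 319. With chin and ventral libraries alone it was 841, and without the filter on low values, without the variance trend and after rescaling to TPM it was 973, 1016 and 1823. The departure of ventral over chin from other stages (3226) was 1895 to 3154 on leaving out libraries, lowest without either ventral library. The share of squared distance by domain was 71.1 to 75.7%; without a chin library the arrangements are too few for the exact test to reach 0.05.

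Same-numbered libraries did not deviate together (correlations -0.062 to 0.038 for same-numbered pairs of different domains), so the numbers were not used as a pairing. With the replicate block, ventral over chin had 200 called genes, chin skin was set apart by 122 and ventral skin by 119. Between them, the alternatives reversed 2 of the 399 called differences of named genes, both dorsal over chin under the GC and length correction: Acta1 (0.058, from -0.36) and Cpa3 (-0.046, from 0.30). The cause of these changes was not tested. With 2 or 3 libraries per domain, a difference of the size of the spread between libraries could not be called.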
